A study of Mus musculus with 18 samples.

Results

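Nerve cells fire, rest and release transmitter through membrane channels that open to sodium, calcium or potassium, and the genes of these channels are described here in mouse hippocampal cultures with and without *Fibcd1*, a gene for a membrane receptor of acetylated sugars. The members were the genes of the deposited expression table whose symbols begin with Scn (sodium), Cacna, Cacnb, Cacng or Cacna2d (calcium), Kcn (potassium) or Hcn (cation channels opened by hyperpolarisation). The name pattern matched 90 genes. The antisense transcript *Kcnq1ot1* and the imprinted gene *Kcnk9* were left out, which gave 88 of the 12012 genes of the table, namely 7 sodium, 21 calcium, 56 potassium and 4 HCN channel genes. The libraries were poly-A RNA of primary cultures from the hippocampi of late embryos, either *Fibcd1* WT or *Fibcd1* KO, grown on a coating of chondroitin sulphate proteoglycans (CSPG), which are glycosaminoglycan-bearing proteins of the brain's extracellular matrix. Both groups carried the same coating and came from mice on a C57BL/6J background, and the KO allele was constitutive (*Fibcd1*tm1Lex). RNA was taken within days of plating, at 2 or 3 days in vitro. Of the 18 libraries of the series, the 4 WT CSPG and 4 KO CSPG libraries with replicate letters A to D were analysed. Cultures without CSPG, and 1 further WT CSPG library, were not analysed here, so every comparison below is one of genotype on CSPG. The sex and litter of the embryos behind each library are not given in the sources used here, and p-values measure the spread between these preparations of cells.

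Voltage-gated sodium channels carry the upstroke of the action potential, calcium channels turn depolarisation into calcium entry, and potassium channels repolarise the membrane, set its resting level and limit repetitive firing. HCN channels pass a depolarising current at rest and pace rhythmic activity. A channel is built from pore-forming subunits, which are shared out between many closely related genes, and from auxiliary subunits, which change how the pore gates and how much of it reaches the membrane. Cultured hippocampal neurons acquire these channels as they mature, so the set of subunit genes used at an early day differs from that of the adult hippocampus.

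The values are normalized counts, that is, the reads of a gene scaled by the library's own size factor. The 8 libraries held 10099564 to 11647202 reads over the genes of the table, and channel genes took 0.446% to 0.458% of them in WT CSPG and 0.456% to 0.472% in KO CSPG. The lowest member in any library had 38 reads, but the smallest mean of any gene of the table was 40.7 normalized counts, so channel genes used at lower levels than this are not covered. *Fibcd1* itself stood at 54.3, 70.4, 60.1 and 182 normalized counts in WT CSPG (A to D) and 0.97, 0.932, 7.16 and 4.74 in KO CSPG. Its log2 fold change (KO CSPG over WT CSPG, on the log2(value + 1) scale throughout) was -4.48 ± 0.58 (SE, n = 4 per group), with an adjusted p of 0.00599 by limma, and the 2 groups did not overlap. The summed level of 4 Y-linked genes also separated the groups, at 10.6 to 10.9 on the log2 scale in WT CSPG and 9.78 to 10.1 in KO CSPG, so that a difference in the sex of the embryos and the genotype cannot be told apart.

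The labels call the cells neurons, and the summed level of 10 neuronal markers was 80394 to 85530 normalized counts in WT CSPG and 80373 to 83078 in KO CSPG. Markers of other cells were present too. The 10 astrocyte and radial glia markers summed to 41246 to 50431 in WT CSPG and 48132 to 53488 in KO CSPG. The groups did not overlap in the oligodendrocyte lineage list (8 of 8 markers measured), with a sum of 1098 to 1461 in WT CSPG and 1708 to 1913 in KO CSPG, a ratio of 1.41. *Olig1* and *Olig2*, transcription factors of that lineage, rose by 0.59 and 0.79 on the log2 scale, with adjusted p-values of 2.33e-07 and 1.2e-06 by limma. The 6 glutamatergic markers summed to 11129 to 12081 in WT CSPG and 10228 to 11028 in KO CSPG, again without overlap, and of them *Neurod2* and *Neurod6*, transcription factors of these neurons, fell past the threshold. The 11 GABAergic markers overlapped at 7061 to 8330 and 7661 to 8860, and so did 6 proliferation markers at 2486 to 2650 and 2458 to 2650. Microglial, fibroblast, endothelial and mural, choroid plexus and Cajal-Retzius lists had 3 or 4 measured members each, and none of those members passed the threshold. Their KO CSPG over WT CSPG ratios of mean sums were 1.08, 1.32, 1.35, 0.222 and 1.23. The defining microglial genes *P2ry12*, *Aif1*, *Tmem119* and *Itgam* and the endothelial genes *Cldn5*, *Pecam1*, *Flt1* and *Cdh5* were not in the table. Choroid plexus markers summed to 162 to 3999 in WT CSPG, the highest in replicate D, and to 209 to 527 in KO CSPG. In bulk RNA, fewer cells of a type and less RNA per cell cannot be told apart, and the part of these marker differences in the results below was not tested.

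The starts of the 4 changed channel genes with a single entry each in the RefSeq promoter table (GRCm38.p6) are shown here, because they let the promoters of genes that rose in KO CSPG be set side by side. Each runs from 250 bases before to 50 bases after the annotated start, in the direction of transcription, and capitals mark matches on either strand to the motifs searched. *Kcnj2* lies on the + strand at chr11:111065914-111066213, *Kcna2* on the + strand at chr3:107101317-107101616, *Kcna6* on the - strand at chr6:126740625-126740924 and *Kcnh1* on the + strand at chr1:192190527-192190826.
Kcnj2: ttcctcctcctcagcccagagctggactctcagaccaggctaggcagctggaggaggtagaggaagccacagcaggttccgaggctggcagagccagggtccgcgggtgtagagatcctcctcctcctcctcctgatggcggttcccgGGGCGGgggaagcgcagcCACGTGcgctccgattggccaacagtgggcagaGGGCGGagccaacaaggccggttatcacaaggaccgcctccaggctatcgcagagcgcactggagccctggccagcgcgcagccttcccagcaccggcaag
Kcna2: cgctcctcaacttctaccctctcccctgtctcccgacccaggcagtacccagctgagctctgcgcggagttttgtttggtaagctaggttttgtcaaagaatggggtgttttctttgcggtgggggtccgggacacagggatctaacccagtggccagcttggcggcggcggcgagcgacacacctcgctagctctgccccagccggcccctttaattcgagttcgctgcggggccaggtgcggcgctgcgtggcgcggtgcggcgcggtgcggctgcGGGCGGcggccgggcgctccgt
Kcna6: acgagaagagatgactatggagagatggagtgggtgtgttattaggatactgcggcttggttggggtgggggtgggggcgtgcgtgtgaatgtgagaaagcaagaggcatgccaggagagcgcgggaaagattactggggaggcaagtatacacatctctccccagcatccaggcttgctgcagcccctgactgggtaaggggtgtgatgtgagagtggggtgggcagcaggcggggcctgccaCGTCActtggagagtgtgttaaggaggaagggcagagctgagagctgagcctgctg
Kcnh1: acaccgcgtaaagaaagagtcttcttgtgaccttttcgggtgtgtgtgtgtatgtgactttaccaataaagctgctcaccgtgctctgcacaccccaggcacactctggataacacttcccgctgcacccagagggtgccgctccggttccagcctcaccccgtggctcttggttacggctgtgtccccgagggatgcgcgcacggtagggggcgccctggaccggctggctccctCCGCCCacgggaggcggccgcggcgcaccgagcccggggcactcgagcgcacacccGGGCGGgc
The capitals are GGGCGG, the GC box, in *Kcnj2*, *Kcna2* and *Kcnh1*, where CCGCCC is the same motif on the other strand, CACGTG, an E-box, in *Kcnj2*, and CGTCA, the reverse of the cyclic AMP response half-site TGACG, in *Kcna6*. Across the 93 promoter entries found for 61 of the 88 members, 48.4% held a GC box, against 35.7% of all 32851 entries. CACGTG was present in 4.30% of the members' entries and 7.15% of all, and TGACG in 14.0% and 20.8%. The full response element TGACGTCA, which contains the half-site, was in 0 of the members' entries and 1.79% of all. TATAAA stood in 5.38% against 13.6%, GCGNGGGCG, an EGR motif, in 10.8% against 5.55%, and TGANTCA, an AP-1 motif, in 3.23% against 7.81%. The median GC content was 62.0% over the members' entries and 52.7% over all. These are descriptions of letters in a window and not of factor binding. *Kcna1* and *Kcnq3* had no entry.

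Across the channel genes, 9 of 88 changed (10.2%) at an adjusted p under 0.05 by limma, with the adjustment made over all 12012 genes. Over all genes tested, 346 changed, or 2.88%. Of the members, 7 rose (7.95%; 1.09% of all genes) and 2 fell (2.27%; 1.79% of all genes) in KO CSPG. The risers were *Kcnj2*, *Kcnab1*, *Kcna6*, *Kcna2*, *Scn2a*, *Kcnq5* and *Kcnh1*, and the fallers were *Kcna1* and *Kcnq3*. In 14 members every KO CSPG library lay above every WT CSPG library (15.9%; 4.05% of all genes), and in 4 every one lay below (4.55%; 5.17% of all genes). Positive log2 fold changes were found in 59 of the 88 (67.0%; 50.1% of all genes), with a median of 0.052 against 0.00016 over all genes. At an unadjusted p under 0.05 there were 25 members, and 1943 genes in all. The number called depended on the fit. With the Y-linked level as a covariate, of whose variance genotype accounts for 91.2%, 0 members and 2 genes of the table passed. Of the 88 members 6 had an unadjusted p under 0.05 there, as did 825 of the 12012 genes, a similar share. In that fit the log2 fold changes were 0.72 for *Kcnj2*, -0.40 for *Kcna1*, 0.99 for *Kcnab1*, 0.47 for *Kcnh1*, 0.29 for *Kcnq5* and -0.63 for *Kcnq3*, of which only those of *Kcnj2* and *Kcna1* were smaller than without the covariate. They were 0.14 for *Kcna2*, 0.086 for *Kcna6* and -0.15 for *Scn2a*. Leaving out single libraries gave between 4 members (without KO CSPG replicate A) and 14 (without WT CSPG replicate D). It gave 6 without KO CSPG replicate B and 6 without KO CSPG replicate D. Without the trend option of limma 4 members passed. *Kcna2*, *Kcnq5*, *Kcna6*, *Kcnq3* and *Scn2a* did not pass there, at adjusted p-values of 0.0935 to 0.192. Scaling by the upper quartile moved the higher share of all called genes from 37.9% to 50.6%, and scaling by neuronal markers moved it to 64.9%, while the changes called here kept their direction under both.

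**Figure D1:**
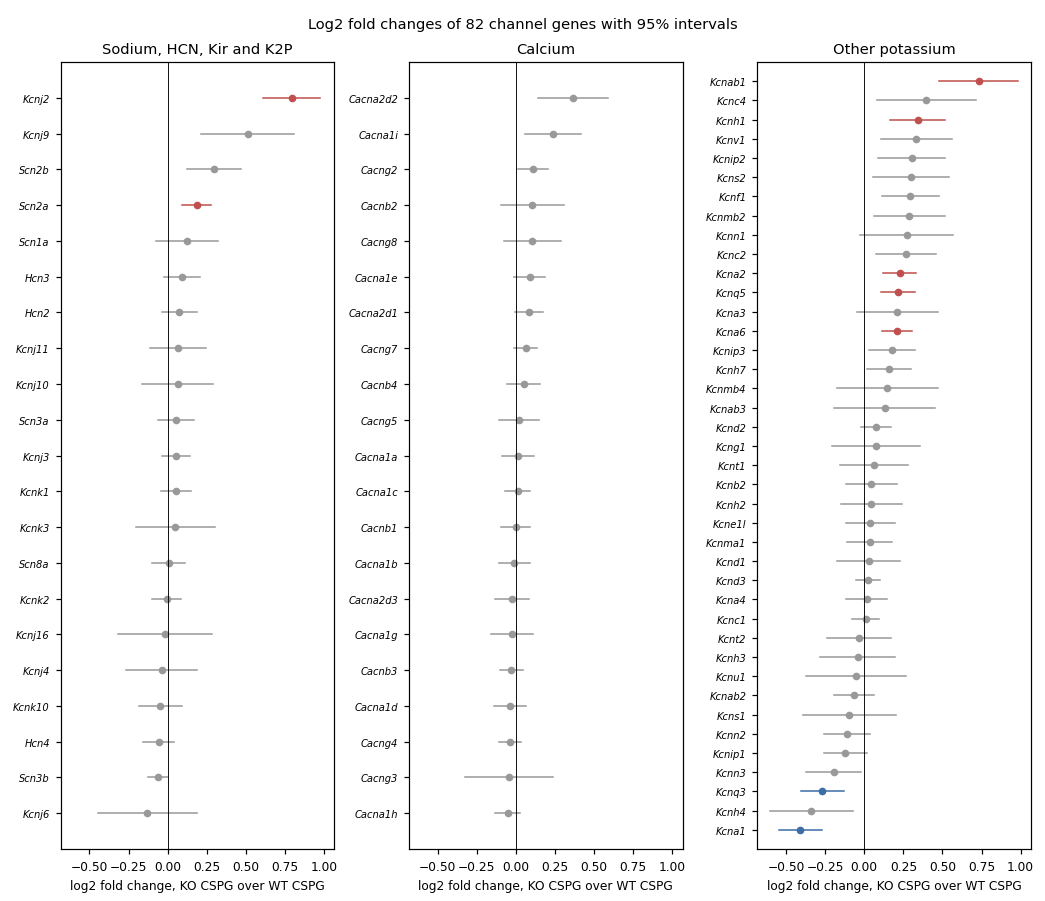
Log2 fold change (KO CSPG over WT CSPG, horizontal axis) of 82 of the channel genes, with bars for 95% intervals from limma (n = 4 libraries per group), in 3 panels. The left panel holds sodium and HCN channel genes with the inward rectifier (Kir) and 2-pore (K2P) potassium channel genes. Calcium channel genes are in the middle and the other potassium channel genes on the right. Red and blue points passed an adjusted p of 0.05 (7 higher, 2 lower) and grey points did not. *Kcnj2* and *Kcnab1* lie farthest to the right, *Kcna1* farthest to the left, and the calcium channel genes gather around 0.

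Among sodium channel genes, 1 of 7 rose (14.3%; 1.09% of all genes). This was the pore-forming *Scn2a*, whose channel sits in unmyelinated axons and the initial segment of young neurons. Its values were 1265, 1439, 1302 and 1405 normalized counts in WT CSPG (A to D) and 1546, 1621, 1436 and 1547 in KO CSPG. The groups overlapped slightly, since KO CSPG replicate C lay just under WT CSPG replicate B. The log2 fold change was 0.19 ± 0.044 (adjusted p = 0.0203), a 1.14-fold difference. This call was lost in 5 of the 8 fits that left out a library (WT CSPG A or C, KO CSPG A, B or D), at adjusted p-values of 0.0594 to 0.0909, and its sign turned to -0.15 with the Y-linked covariate. The other pore-forming genes were *Scn3a*, typical of embryonic neurons, at a log2 difference of 0.055 (95% interval -0.062 to 0.17), *Scn8a*, of mature initial segments and nodes, at 0.0083 (-0.10 to 0.11), and *Scn1a*, the main pore of fast-spiking interneurons, at 0.12 (-0.072 to 0.32). These 3 intervals include 0. Per kb of feature length, which is the only scale on which genes are compared here, *Scn2a* led with 106 normalized counts per kb in WT CSPG, ahead of *Scn3a* at 62.0, *Scn8a* at 46.3 and *Scn1a* at 11.9. *Scn2a* made up 46.9% ± 0.844 (SD, n = 4) of the summed level per kb of these 4 genes in WT CSPG and 49.3% ± 1.69 in KO CSPG.

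The beta subunits of sodium channels are adhesion-like proteins that modulate gating and surface expression. None of the 3 measured passed the threshold, which 2.88% of all genes did. *Scn3b* had the highest level per kb of all 88 members, 640 in WT CSPG and 613 in KO CSPG. Its values were 3630, 3489, 3414 and 3448 normalized counts in WT CSPG (A to D) and 3402, 3407, 3219 and 3359.8 in KO CSPG. Every KO CSPG library lay below every WT CSPG library, with a log2 difference of -0.062 (95% interval -0.13 to 0.0013; adjusted p = 0.324). *Scn2b* pointed the other way, with 164, 175, 154 and 186 normalized counts in WT CSPG (A to D) and 211, 216, 187 and 221 in KO CSPG, again with no overlap. The log2 difference for *Scn2b* was 0.30 ± 0.084 and the adjusted p 0.0528, which fell to 0.0226 without WT CSPG replicate D and to 0.0404 without KO CSPG replicate C.

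None of the 21 calcium channel genes passed the threshold, which 2.88% of all genes did. An unadjusted p under 0.05 was found in 3 of the 21 and in 1943 of all 12012 genes, a similar share. The log2 differences of the 21 genes ranged from -0.054 to 0.37, with a median of 0.013 (0.00016 over all genes). The median lay between 0.0018 (without WT CSPG replicate C) and 0.039 (without WT CSPG replicate D) when a library was left out, and at -0.14 with the Y-linked covariate. Of the 8 pore-forming genes, the L-type genes *Cacna1c* and *Cacna1d*, whose channels couple depolarisation to transcription, differed by 0.013 (95% interval -0.067 to 0.093) and -0.038 (-0.14 to 0.061). The presynaptic P/Q-type and N-type pores *Cacna1a* and *Cacna1b* differed by 0.013 (-0.091 to 0.12) and -0.012 (-0.11 to 0.088), and the R-type pore *Cacna1e* by 0.088 (-0.013 to 0.19). For these 5 genes the data leave room for a log2 difference of at most 0.19 in either direction at the 95% level.

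The low-voltage T-type genes gave log2 differences of both signs. *Cacna1h*, at 153 normalized counts per kb the highest pore-forming calcium channel gene, differed by -0.054 (95% interval -0.13 to 0.024) and *Cacna1g* by -0.026 (-0.16 to 0.11). *Cacna1i* was measured at 162, 156, 159 and 142 normalized counts in WT CSPG (A to D) and 164, 189, 176 and 203 in KO CSPG. Its KO CSPG libraries all lay above its WT CSPG libraries, with a log2 difference of 0.24 ± 0.087 and an adjusted p of 0.149. Whether the 3 T-type genes differ from each other in their response was not tested.

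Auxiliary calcium channel genes were among the most used channel genes of these cultures. *Cacng4* reached 580 normalized counts per kb in WT CSPG, *Cacnb3* 548 and *Cacng7* 543, against 153 for *Cacna1h*. The Cacnb genes encode cytoplasmic beta subunits that bring the pore to the membrane, while several Cacng proteins, *Cacng2*, *Cacng3*, *Cacng4* and *Cacng8* among them, are better known as partners of AMPA-type glutamate receptors. *Cacnb3* and *Cacng4* differed by -0.029 (95% interval -0.10 to 0.045) and -0.038 (-0.11 to 0.033), and *Cacng7* by 0.061 (-0.014 to 0.14). *Cacng7* had no overlap between groups, at 1280 to 1350 in WT CSPG and 1352 to 1415 in KO CSPG. The largest difference of the class was that of *Cacna2d2*, which encodes an alpha2delta subunit bound by gabapentin, with 127, 161, 149 and 205 normalized counts in WT CSPG (A to D) and 206, 204, 215 and 194 in KO CSPG. Its WT CSPG replicate D lay among the KO CSPG values, and the other WT CSPG libraries below all of them. The log2 difference of 0.37 ± 0.11 had an adjusted p of 0.0723, and 0.00161 without WT CSPG replicate D, the library with the highest choroid plexus markers. The remaining auxiliary genes did not pass either. *Cacng2* had an unadjusted p under 0.05 at a log2 difference of 0.11 (adjusted p = 0.246). *Cacna2d1* gave 0.085 (95% interval -0.0035 to 0.17), *Cacna2d3* -0.023, *Cacnb1* -0.0026, *Cacnb2* 0.11, *Cacnb4* 0.05, *Cacng3* -0.047, *Cacng5* 0.019 and *Cacng8* 0.10.

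**Figure D2:**
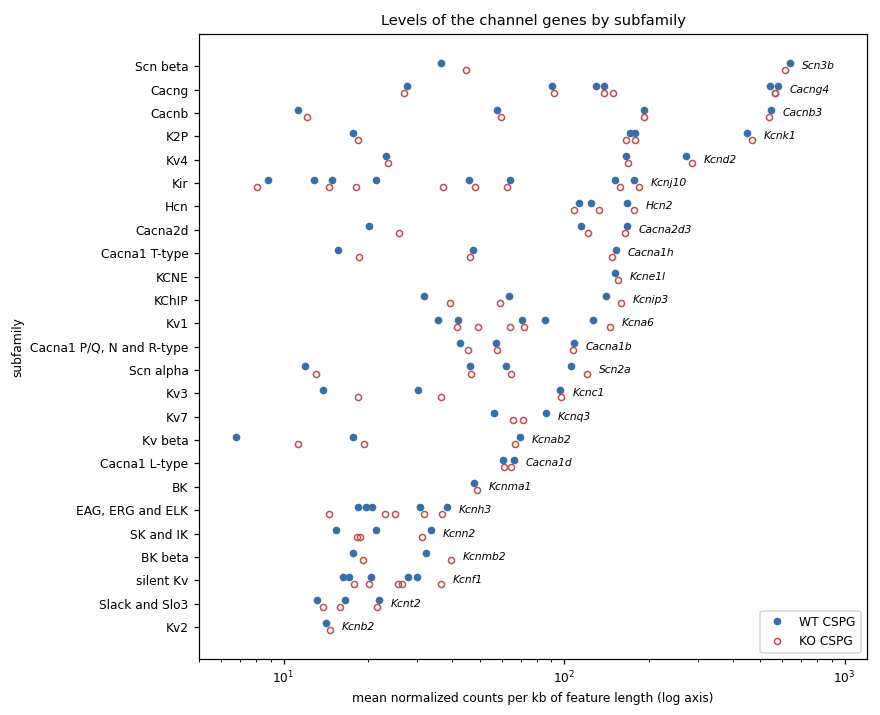
Mean level of 82 of the channel genes in normalized counts per kb of feature length (horizontal log axis, n = 4 libraries per group) by subfamily, with filled blue points for WT CSPG and open red points for KO CSPG. The labelled gene is the highest of those drawn for its subfamily in WT CSPG. *Scn3b*, *Cacng4*, *Cacnb3*, *Cacng7* and *Kcnk1* lie highest, and the points of both groups nearly coincide for most genes.

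Potassium channel genes, 56 of the 88 members, held 8 of the 9 changes (14.3% of the class, against 2.88% of all genes). In the class 6 rose (10.7%, against 1.09% of all genes) and 2 fell (3.57%, against 1.79%). The median log2 difference was 0.051 (0.00016 over all genes), with 38 positive values (67.9%, against 50.1% of all genes). That median was 0.028 without WT CSPG replicate A and -0.047 with the Y-linked covariate. By role, 6 of the 23 voltage-gated pore-forming genes changed (26.1%, against 2.88% of all genes). Of these, 4 rose (17.4% of the 23, against 1.09% of all genes) and 2 fell (8.70%, against 1.79%). One auxiliary gene and 1 inward rectifier made up the rest. The changed genes belonged to the Kv1, Kv beta, Kv7, EAG and inward rectifier subfamilies.

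The inward rectifier *Kcnj2*, which passes potassium near the resting potential and stabilises it, had the smallest p of all members. It was measured at 116, 118, 127 and 104 normalized counts in WT CSPG (A to D) and 207, 208, 205 and 188 in KO CSPG. Each KO CSPG value exceeded every WT CSPG value by a wide margin. The log2 fold change was 0.79 ± 0.088 (adjusted p = 2.38e-06), a 1.73-fold rise from a mean of 116 ± 9.51 to 202 ± 9.52 (SD, n = 4). It lay between 0.74 and 0.84 when any 1 library was left out, and passed the threshold in all 8 of those fits. The gene (ENSMUSG00000041695, + strand of chr11:111066164-111076821, mm10) has 2 exons in GENCODE M21, neither shared with another gene. At 21.4 normalized counts per kb in WT CSPG it was a minor inward rectifier of these cultures, with 4.29% ± 0.313 (SD, n = 4) of the summed level per kb of the 8 Kir genes, and 6.97% ± 0.292 in KO CSPG.

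No other inward rectifier passed the threshold, which left 1 of 8 called (12.5%, against 2.88% of all genes). *Kcnj10*, the glial channel that clears potassium, led the subfamily with 178 normalized counts per kb in WT CSPG and differed by 0.065 (95% interval -0.16 to 0.29). The G protein-gated rectifiers *Kcnj3*, *Kcnj6* and *Kcnj9*, which inhibitory receptors open, showed log2 differences of 0.054, -0.13 and 0.51. *Kcnj9* was close to the threshold (adjusted p = 0.0518), with 44.9, 47.6, 58.2 and 69.3 normalized counts in WT CSPG (A to D) and 72.7, 70.9, 86.9 and 81.5 in KO CSPG. Its groups did not overlap, although WT CSPG replicate D came within a few counts of the lowest KO CSPG library. *Kcnj11*, the pore of the ATP-sensitive channel, differed by 0.067 (95% interval -0.11 to 0.25), *Kcnj4* by -0.036 and *Kcnj16* by -0.015. *Kcnj16* lies 38196 bases from *Kcnj2* on chromosome 11, at -0.015 against 0.79 on the log2 scale.

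The Kv1 subfamily carries the low-threshold current of axons that limits repetitive firing. Of its 5 measured genes 3 changed, in opposite directions (60%, against 2.88% of all genes). *Kcna1* fell, with 435, 389.9, 435 and 369.9 normalized counts in WT CSPG (A to D) and 297, 324, 319 and 286 in KO CSPG. All KO CSPG values lay below the lowest WT CSPG value. Its log2 fold change was -0.41 ± 0.066 (adjusted p = 0.000513), and it stayed between -0.45 and -0.38 and past the threshold whichever library was left out.

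*Kcna2*, which forms mixed channels with *Kcna1* in axons, rose with 503, 512, 485 and 499 normalized counts in WT CSPG (A to D) and 625, 599, 567 and 552 in KO CSPG. Its WT CSPG libraries were close together and all below the KO CSPG libraries. The log2 fold change was 0.23 ± 0.051 (adjusted p = 0.0126), and the adjusted p was 0.0776 without KO CSPG replicate A. *Kcna6*, another delayed rectifier of the subfamily and its highest gene per kb (126 in WT CSPG), was measured at 775, 754, 761 and 715 normalized counts in WT CSPG (A to D) and 846, 929.6, 819 and 879 in KO CSPG, with no overlap. It rose by 0.21 ± 0.046 on the log2 scale (adjusted p = 0.0117; 0.0541 without KO CSPG replicate B). In GENCODE M21, 39.6% of its exon length overlaps *Gm26673* on the opposite strand, a gene that is not in the table. Whether the counting used strand is not given in the sources used here, so reads of these 2 genes may not be told apart.

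*Kcna3* and *Kcna4*, the latter a fast-inactivating channel, did not pass the threshold, with log2 differences of 0.21 (95% interval -0.046 to 0.47) and 0.017 (-0.11 to 0.15). The summed level per kb of the 5 Kv1 genes was 360 ± 12.2 in WT CSPG and 373 ± 19.1 in KO CSPG (SD, n = 4). Within that sum the share of *Kcna1* went from 23.6% ± 1.13 to 17.2% ± 0.804, that of *Kcna6* from 35.1% ± 0.485 to 39.2% ± 1.24, and that of *Kcna2* from 11.7% ± 0.562 to 13.2% ± 0.812. The shares of the genes trade against each other, so they describe the mix and are not separate tests. *Kcna1* (chr6:126640397-126646384) and *Kcna6* (chr6:126708329-126740674), both on the - strand of mm10, lie 61945 bases apart and moved in opposite directions. *Kcna2* (chr3:107101146-107115005, + strand) lies 63076 bases from *Kcna3*, which had a log2 difference of similar size, 0.21 against 0.23, with a wider error.

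**Figure D3:**
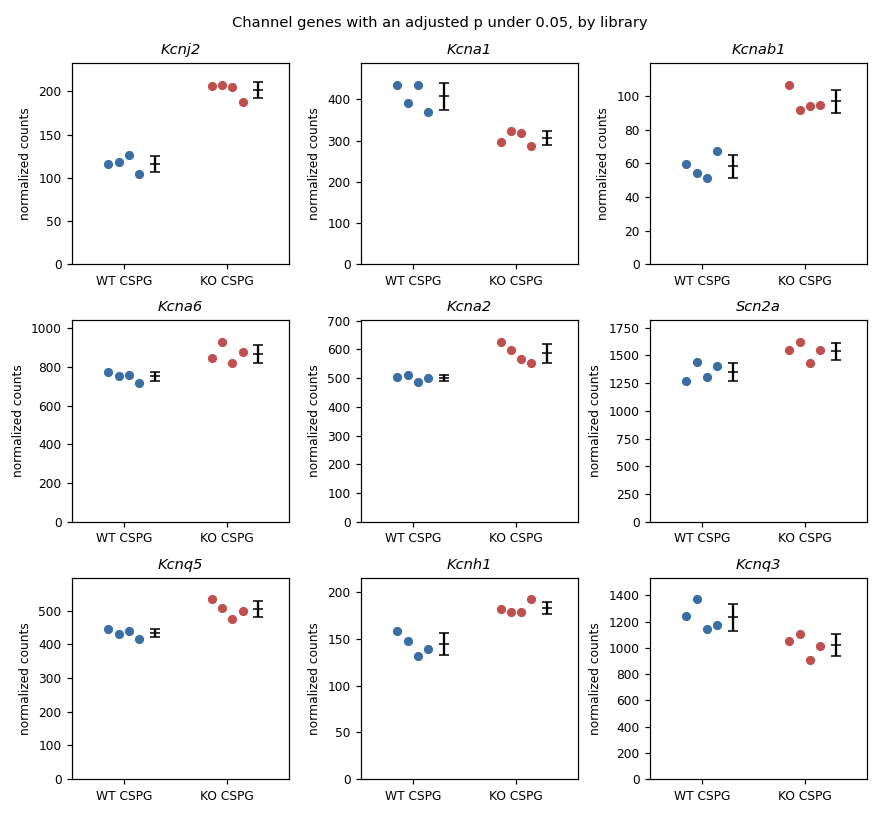
Normalized counts of the 9 channel genes with an adjusted p under 0.05 in each library, from 0 on the vertical axis, with WT CSPG in blue and KO CSPG in red; replicates A to D run from left to right and black marks give the mean and SD (n = 4). *Kcnj2* and *Kcnab1* show the widest gap between groups, and *Scn2a* is the gene whose groups overlap.

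*Kcnab1* encodes a Kv beta subunit, which plugs Kv1 pores to give them fast inactivation. It stood at 59.6, 54.1, 51.4 and 67.3 normalized counts in WT CSPG (A to D) and 107, 91.4, 94.1 and 94.8 in KO CSPG. Every KO CSPG library had more than any WT CSPG library, and the log2 fold change was 0.73 ± 0.12 (adjusted p = 0.000799; 0.68 to 0.80 with any 1 library left out, past the threshold in all 8 fits). The change was 1.66-fold, at a low level of 6.76 normalized counts per kb in WT CSPG. *Kcnab2*, the main Kv beta gene of these cultures at 69.8 per kb, differed by -0.064 (95% interval -0.19 to 0.064), and *Kcnab3* by 0.13 (-0.19 to 0.45). *Kcnab1* made up 7.18% ± 0.766 of the Kv beta sum per kb in WT CSPG and 11.6% ± 0.984 in KO CSPG (SD, n = 4).

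**Figure D4:**
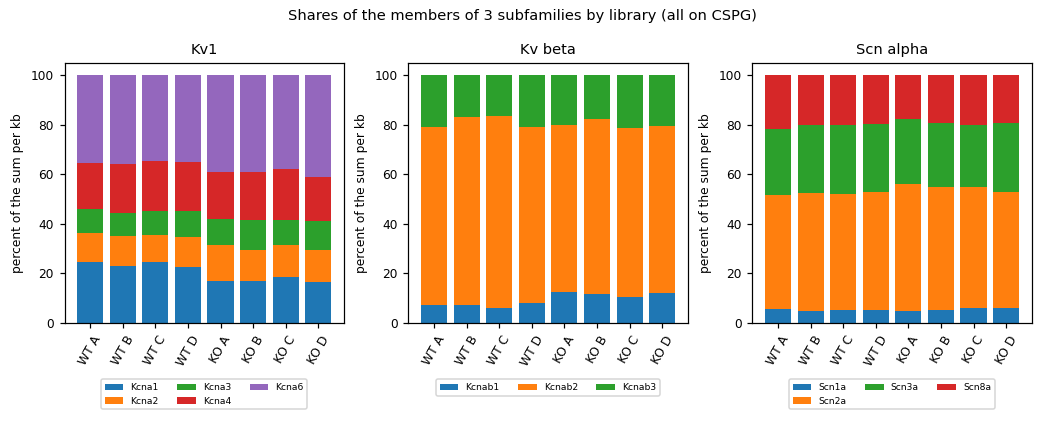
Share of each gene in the summed normalized counts per kb (vertical axis, percent) of the Kv1, Kv beta and sodium channel alpha subfamilies, with 1 bar for each library. The *Kcna1* segment is 22.5% to 24.7% in WT CSPG and 16.6% to 18.4% in KO CSPG, and the *Kcnab1* segment is 6.16% to 8.01% in WT CSPG and 10.2% to 12.6% in KO CSPG.

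The Kv7 genes encode the M-current, a slow potassium current that muscarinic receptors close. Of the 4 measured ones 2 changed, again in opposite directions (50%, against 2.88% of all genes). *Kcnq3* fell, with 1243, 1369, 1142 and 1173 normalized counts in WT CSPG (A to D) and 1056, 1108, 911 and 1014 in KO CSPG. The groups did not overlap, but WT CSPG replicate C and KO CSPG replicate B were close. Its log2 fold change of -0.27 ± 0.064 had an adjusted p of 0.0372, and of 0.0776 to 0.105 without WT CSPG replicate A, KO CSPG replicate A or KO CSPG replicate D. *Kcnq5* rose, with 446, 432, 439 and 416 normalized counts in WT CSPG (A to D) and 533, 507, 476 and 499.6 in KO CSPG. No libraries of the 2 groups overlapped, and the log2 fold change was 0.22 ± 0.053 (adjusted p = 0.0238; 0.107 without KO CSPG replicate A and 0.0547 without replicate B).

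*Kcnh1*, the ether-a-go-go channel, rose with 159, 148, 132 and 139.6 normalized counts in WT CSPG (A to D) and 182, 179, 179 and 192 in KO CSPG. The groups did not overlap. Its log2 fold change was 0.34 ± 0.085 (adjusted p = 0.0259), and the adjusted p was 0.0545 to 0.0983 without WT CSPG replicate C or KO CSPG replicate A, C or D. The related *Kcnh4* was lower in every KO CSPG library, with 77.3, 68.2, 65.9 and 79.5 normalized counts in WT CSPG (A to D) and 52.4, 61.5, 56.2 and 58.8 in KO CSPG, but its log2 difference of -0.34 ± 0.13 did not pass the threshold (adjusted p = 0.17). *Kcnh3*, *Kcnh7* and the ERG channel gene *Kcnh2*, whose product repolarises the heart, differed by -0.043, 0.16 and 0.044, and none of them passed.

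The voltage-gated genes of the Kv2, Kv3 and Kv4 subfamilies held no change among 9. Over all genes 2.88% changed, so a count of 0 among so few says little about these subfamilies. *Kcnb2*, a delayed rectifier, differed by 0.044 (95% interval -0.12 to 0.21). *Kcnd2*, the dendritic A-type channel, was the highest voltage-gated potassium channel gene per kb (272 in WT CSPG) and differed by 0.075 (-0.02 to 0.17), *Kcnd3* by 0.022 (-0.055 to 0.10) and *Kcnd1* by 0.027. Of the Kv3 genes, which allow fast spiking, *Kcnc1* differed by 0.0084 (-0.079 to 0.10), while *Kcnc2* and *Kcnc4* had unadjusted p-values under 0.05 with log2 differences of 0.27 and 0.40 and adjusted p-values of 0.133 and 0.181 by limma.

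The electrically silent Kv genes, whose products work only within Kv2 channels, and the KChIP genes, whose products assist Kv4 channels, held no change among 5 and 3 members. With 2.88% of all genes called, these counts too are what so few members would often give. *Kcnf1* had 142, 127, 146 and 156 normalized counts in WT CSPG (A to D) and 166, 184, 183 and 168 in KO CSPG, with no overlap between groups and a log2 difference of 0.29 ± 0.088 (adjusted p = 0.0711; 0.0338 without WT CSPG replicate D). *Kcns2* likewise did not overlap, at 0.30 (adjusted p = 0.184). *Kcnv1* stood at 0.33, *Kcng1* at 0.075 and *Kcns1* at -0.094. *Kcnip3*, the highest KChIP gene per kb (141), and *Kcnip2* differed by 0.18 and 0.30, and *Kcnip1* by -0.12.

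The 2-pore genes, which carry the leak current, the calcium-activated genes and the sodium-activated genes also held no change. These are small sets too, beside 2.88% called over all genes. *Kcnk1*, the highest potassium channel gene per kb (450.3 in WT CSPG, 467 in KO CSPG), differed by 0.053 (95% interval -0.045 to 0.15), and the mechanosensitive *Kcnk2* and *Kcnk10* by -0.0066 and -0.047, and *Kcnk3* by 0.05. *Kcnma1*, the large-conductance channel opened by calcium and voltage, differed by 0.034 (-0.11 to 0.18) and its beta subunit *Kcnmb2* by 0.29 (adjusted p = 0.174) and *Kcnmb4* by 0.15. The small-conductance genes, which shape the afterhyperpolarisation, gave 0.27 for *Kcnn1*, -0.11 for *Kcnn2* and -0.19 for *Kcnn3*. *Kcnt2*, a sodium-activated channel gene, gave -0.031 (95% interval -0.24 to 0.17), *Kcnt1* 0.064 and the related *Kcnu1* -0.051, and *Kcne1l*, an auxiliary gene, 0.04 (-0.12 to 0.20).

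None of the 4 HCN genes passed the threshold or had an unadjusted p under 0.05. Over all genes 2.88% passed, and 1943 of 12012 had an unadjusted p under 0.05. A count of 0 among 4 therefore says little about the class. Per kb in WT CSPG, *Hcn2* stood at 168 normalized counts, *Hcn3* at 124 and *Hcn4* at 113. *Hcn2* was measured at 518, 549, 519.8 and 564 normalized counts in WT CSPG (A to D) and 608, 518, 585 and 555 in KO CSPG, and its groups overlapped. The log2 differences were 0.073 for *Hcn2* (95% interval -0.039 to 0.19), 0.092 for *Hcn3* (-0.022 to 0.21) and -0.057 for *Hcn4* (-0.16 to 0.042). A log2 change beyond 0.21 in either direction lies outside these 3 intervals.

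Outside the name rule, 30 genes for proteins that bind, anchor or regulate these channels were examined, among them the leak channel complex of *Nalcn*, the Kv4 partners *Dpp6* and *Dpp10*, the intracellular fibroblast growth factors, ankyrins and calmodulins. All 30 were in the table and 1 rose (3.33%, near the 2.88% of all genes), with a median log2 difference of 0.021 and 16 positive values. This was *Cntnap2*, which encodes the adhesion protein that gathers Kv1 channels beside the node of Ranvier. Its values were 1194, 1305, 1259 and 1384 normalized counts in WT CSPG (A to D) and 1470, 1582, 1482 and 1350 in KO CSPG. KO CSPG replicate D lay within the WT CSPG range, and the other 3 KO CSPG libraries above it. The log2 fold change was 0.19 ± 0.048 (adjusted p = 0.0303). The number of partner genes called was 0 in 6 of the 8 fits that left out a library and 3 without WT CSPG replicate D.

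The members whose log2 values most resembled those of *Kcnj2* over the 8 libraries were *Kcnq5*, *Kcna2* and *Kcna6*, with Pearson's r of 0.93, 0.90 and 0.89. The points share the 2 genotype groups, and r over deviations from the group means was 0.43, 0.21 and 0.33. Genes at the other end were *Kcnh4* and *Kcna1*, at -0.91 and -0.83 over the libraries and at -0.66 and 0.78 over deviations from the group means, so that for *Kcna1* the sign differed within groups.

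**Figure D5:**
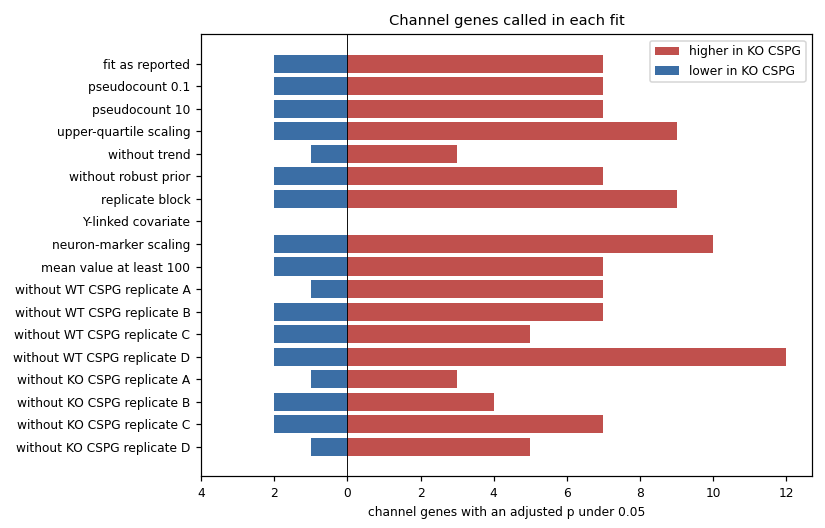
Number of channel genes with an adjusted p under 0.05 in each fit (horizontal axis, counts to the right of 0 for genes higher and to the left for genes lower in KO CSPG), with 1 row for each processing choice or library left out. The fit as reported has 7 and 2, the fit with the Y-linked covariate 0 and 0, and the fit without WT CSPG replicate D 12 and 2.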

How the data were processed

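The authors aligned 50-base single reads of poly-A RNA and deposited 1 table for KO CSPG against WT CSPG. As deposited by the authors, its per-library columns are a normalized signal, in which the reads of a gene were scaled by the library's DESeq2 size factor, and its feature length in bases is used for values per kb. Per the labels, the authors' processing notes name DESeq2 and mm10. The aligner, counting program and annotation are not given in the sources used here. The deposited table also holds the authors' own comparison (a mean, log2 fold change, standard error, Wald score, p-value, adjusted p-value and DEG label), which was not used. Per-library columns left unused numbered 0.

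The log2(value + 1) values entered a linear model per gene (limma 3.58.1, R 4.3.3, trend and robust), n = 4 against 4, with Benjamini-Hochberg adjustment over 12012 genes. A gene rose or fell where the adjusted p was under 0.05. Intervals are at 95%. On data simulated for this comparison over 12012 genes, 54 of 100 genes changed by a log2 of 0.25 and 84 of 100 changed by 0.5 were recovered. In the same data 17 of 11812 unchanged genes were called, a larger share of all calls than the 0.05 that the adjustment aims at. Counts per library were whole multiples of 1 step, which gave the reads; no model for counts was fitted, although one had been planned.

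The members, the lists and the tests were chosen with earlier results of these data known. Genes named by rule were the changed members, the 3 highest per kb and the most changed of each class, all Scn, Cacna1 and Hcn genes, the highest gene per kb of each potassium subfamily, *Fibcd1*, changed partner genes and the 3 members most like the one with the smallest p. Results of some of these genes are not reported here. The other members, the cell type markers and the promoters' genes were named after their values were seen. Of the 88 members, 88 were found in GENCODE M21 (GRCm38), 77 with the same coordinates. In 31 members, exon bases overlapped an exon of another gene on either strand, by as little as 1 base (*Kcnh3*). The feature length equalled the M21 exon length, with overlapping bases counted once, in 74 of the 88. For *Cacnb3* it was 3120 bases against 4010 in M21. Levels per kb, and their order, therefore rest on the deposited lengths. Coordinates count from 1. Alternatives were pseudocounts of 0.1 and 10, a mean value of at least 100, upper-quartile scaling, no trend, no robust prior, the replicate letter as a block, Y-linked genes as a covariate, each library left out, and neuron-marker scaling, which was chosen after seeing the data.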

Additional observations from a re-analysis of the deposited data

Results flagged for a closer look

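Among 92 groups of 4 libraries (the channel genes named by rule, in each genotype), 3 held a library far from the rest by Dixon's criterion, where chance gives about 4.6. *Kcnj2* stood at 188 normalized counts in KO CSPG replicate D, with the other 3 KO CSPG libraries at 205 to 208. That library was still above every WT CSPG value, and the log2 fold change of *Kcnj2* passed the threshold without it. *Kcnk1* stood at 1105 in KO CSPG replicate A against 1020.1 to 1025 in the other 3. *Cacna1d* stood at 561 in KO CSPG replicate C against 604 to 609. *Kcnk1* and *Cacna1d* did not pass the threshold with or without these libraries.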

How the results depend on the processing

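*Kcnj2* and *Kcna1* passed the threshold in each fit but the one with the Y-linked covariate, and so did *Kcnab1* where it was tested, since its mean lies under the minimum of 100. With that covariate 0 channel genes were higher, 0 lower, 0 sodium, 0 potassium, 0 HCN and 0 partner genes passed, 2 genes of the table passed in place of 346, and *Scn2a* reversed to -0.15 (adjusted p = 0.884 by limma), while the other 8 called members kept the direction of their fold change. The median log2 difference turned to -0.044 for sodium, -0.14 for calcium and -0.047 for potassium channel genes. Without the trend, 3 channel genes were higher and 1 lower, with 0 sodium, 4 potassium and 0 partner genes and 80 genes of the table. The calls lost there were those of *Kcna2*, *Kcnq5*, *Kcna6*, *Kcnq3* and *Scn2a*, at adjusted p-values of 0.0935, 0.0935, 0.125, 0.168 and 0.192 by limma. The cause was not tested. Sodium channel genes numbered 2 in place of 1 with upper-quartile scaling, the replicate block, neuron-marker scaling or a mean of at least 100, the added gene being *Scn2b*, and calcium channel genes numbered 1 (*Cacna2d2*) in place of 0 with neuron-marker scaling. Leaving out 1 library gave 3 to 12 channel genes higher, 1 to 2 lower, 0 to 2 sodium, 0 to 1 calcium, 4 to 11 potassium, 0 HCN and 0 to 3 partner genes, and 186 to 576 genes of the table. Deviations from the group means correlated at -0.074, 0.096, 0.27 and -0.0051 for letters A to D. Weak correlations over all genes cannot decide whether libraries of 1 letter share a preparation, which the sources used here do not give. Replicate C had the lowest summed fibroblast markers in both groups, at 67.9 normalized counts in WT CSPG and 101 in KO CSPG. With the replicate block, 11 channel genes passed, the 9 already called with *Kcnj9* and *Scn2b*, and 3.57% of the table. Alternatives that need a model for counts were not run. In simulated data 54 of 100 log2 changes of 0.25 were recovered, so for a member that did not pass its interval, and not the missed threshold, bounds the difference.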
